A study of Mus musculus with 7 samples.

Results

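Glycolysis splits glucose into pyruvate in the cytosol, and the pentose phosphate pathway draws glucose 6-phosphate away from it to make NADPH and ribose. The genes described here are 31 of the 24964 genes listed in a mouse uterus RNA-seq series. They were taken by symbol as the carriers, enzymes and regulators of these pathways. All 31 symbols were found, and 30 passed the filter on low values, which was a mean of at least 1 FPKM over the 7 libraries. The exception was Eno1, with a mean below 1. FPKM is the number of sequenced fragments per kilobase of gene length, scaled by the depth of the library, so levels can be set side by side between genes.

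The series asked what overexpression of FOXL2, a forkhead transcription factor of the female reproductive tract, does to the uterus. Whole uteri were taken at diestrus from mice aged 12 weeks. The control group had the genotype Pgrcre/+ and 3 libraries, numbered 1, 2 and 4. The other group had the genotype Pgrcre/+Foxl2LsL/+ and 4 libraries, numbered 1 to 4. Both groups carried the Cre allele at Pgr, named after the progesterone receptor, whose gene is expressed in the epithelium, stroma and muscle of the uterus but not in all of its cells. The labels do not say whether each library came from a separate animal, so p-values measure only the spread between these libraries.

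In a tissue, the same reaction is often catalysed by isozymes encoded by different genes, which differ in kinetics and in the cells that use them. Hexokinase, phosphofructokinase and pyruvate kinase catalyse the irreversible steps of glycolysis, and lactate dehydrogenase regenerates NAD+ by reducing pyruvate to lactate. Many genes of the pathway are known targets of HIF1, the hypoxia-inducible factor. Dividing uterine cells are known for high glucose uptake and lactate release.

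Sequencing depth, recovered from the FPKM steps, was 47800000 to 67300000 fragments per library, and the fewest fragments on any of the 31 genes was 60 to 145 per library. Mouse Foxl2 did not differ between the groups. It measured 11.1, 19.3 and 12.9 FPKM in control libraries 1, 2 and 4 and 12.7, 14.3, 14.8 and 17.2 FPKM in the Foxl2LsL-labelled libraries 1 to 4 (log2 difference 0.06, SE 0.18, limma adjusted p 0.818). Whether transcripts of the Foxl2LsL allele are counted in this row is not given in the sources used here. This gene therefore gave no check of the labels, and every direction below rests on them alone. Defining markers of smooth muscle, epithelium and stroma were present in all 7 libraries, at summed levels of at least 896, 804 and 890 FPKM. All 8 of 8 markers of dividing cells were lower in the Foxl2LsL-labelled libraries. They summed to 211, 174 and 89.4 FPKM in the controls and to 34.6, 11.7, 24.0 and 22.8 FPKM in the labelled libraries. The 6 adipocyte markers summed to 0.377, 4.88 and 52.9 FPKM in the controls and to 1.62, 75.4, 141 and 10.1 FPKM in the labelled libraries, and none of the 5 tested was called by limma (0 at an unadjusted p under 0.05, 0 by limma-voom). The 5 markers of ovary and oviduct reached 303 FPKM in control 2, of which the oviduct gene Ovgp1 made 291, against 9.15 to 26.9 FPKM in the other 6 libraries. Smooth muscle markers were higher for 3 of 8 (896 to 1736 FPKM summed in controls, 1573 to 2010 in labelled libraries) and epithelial markers for 2 of 8 (804 to 1426 against 1105 to 1537), with none lower in either list at an unadjusted limma p under 0.05 or by limma-voom. Stromal markers were lower for 4 of 8, Hand2, Hoxa11, Hoxa10 and Vim, and higher for 1, Dcn (890 to 1447 against 1309 to 1472). Endothelial markers were lower for 4 of 6 and higher for 1, Cldn5 (111 to 145 FPKM summed in controls, 90.7 to 106 in labelled libraries). Leukocyte markers were higher for 2 of 6 tested of 8 (27.9 to 39.1 against 41.4 to 79.6), and gland markers lower for 2 of 3 tested of 6 (91.8 to 123 against 63.2 to 86.2). Skeletal muscle markers were lower for 2 of 3 tested of 5 (20.9 to 61.7 against 8.79 to 14.7). Of 5 erythroid markers, 4 were listed at 0 in all libraries. The part of these markers in the results below was not tested, and in whole tissue fewer cells of a type and less RNA per cell cannot be told apart.

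The pathway did not move as a block: some steps rose and others fell. Among isozymes, Pfkfb3 and Pfkfb4 were called in opposite directions. Aldoc and Aldoa rose together, as did Pdk2 and Pdk1. The aldolase genes Aldoc and Aldoa, the pyruvate dehydrogenase kinases Pdk2 and Pdk1, the pentose phosphate entry enzyme G6pdx and the upstream genes Pfkl, Pfkfb4, Slc2a1 and Gpi1 were higher in the Foxl2LsL-labelled libraries. Pfkfb3, Hk2, Ldhb, Pkm, Slc16a3 and Pgam1 were lower. In all, 15 of the 30 tested genes (50%) passed an adjusted p of 0.05 in limma, against 40.6% of all 13334 genes tested. The 9 higher genes were 30% of those tested, against 16.7% of all genes higher, and the 6 lower genes were 20%, against 23.9% of all genes lower. The groups did not overlap for 16 of the 30 (53.3%), against 47.6% of all genes tested. The median log2 difference was 0.07, against -0.05 over all genes, and the median absolute difference was 0.40, against 0.27. These counts belong to a comparison in which many genes changed. With the filter set to a mean of at least 5 FPKM, the gap between the shares was smaller. The count was then 12 of 26 (8 higher, 4 lower), or 46.2% against 42.0% of all genes. Without control 2 the count was 12 of 30 (8 higher, 4 lower), or 40% against 28.9% of all genes. Without Foxl2LsL-labelled libraries 2 and 3, where adipocyte markers were high, it was also 12 (8 higher, 4 lower), or 40% against 23.4% of all genes. No test was made of the members' share against that of all genes.

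**Figure D1:**
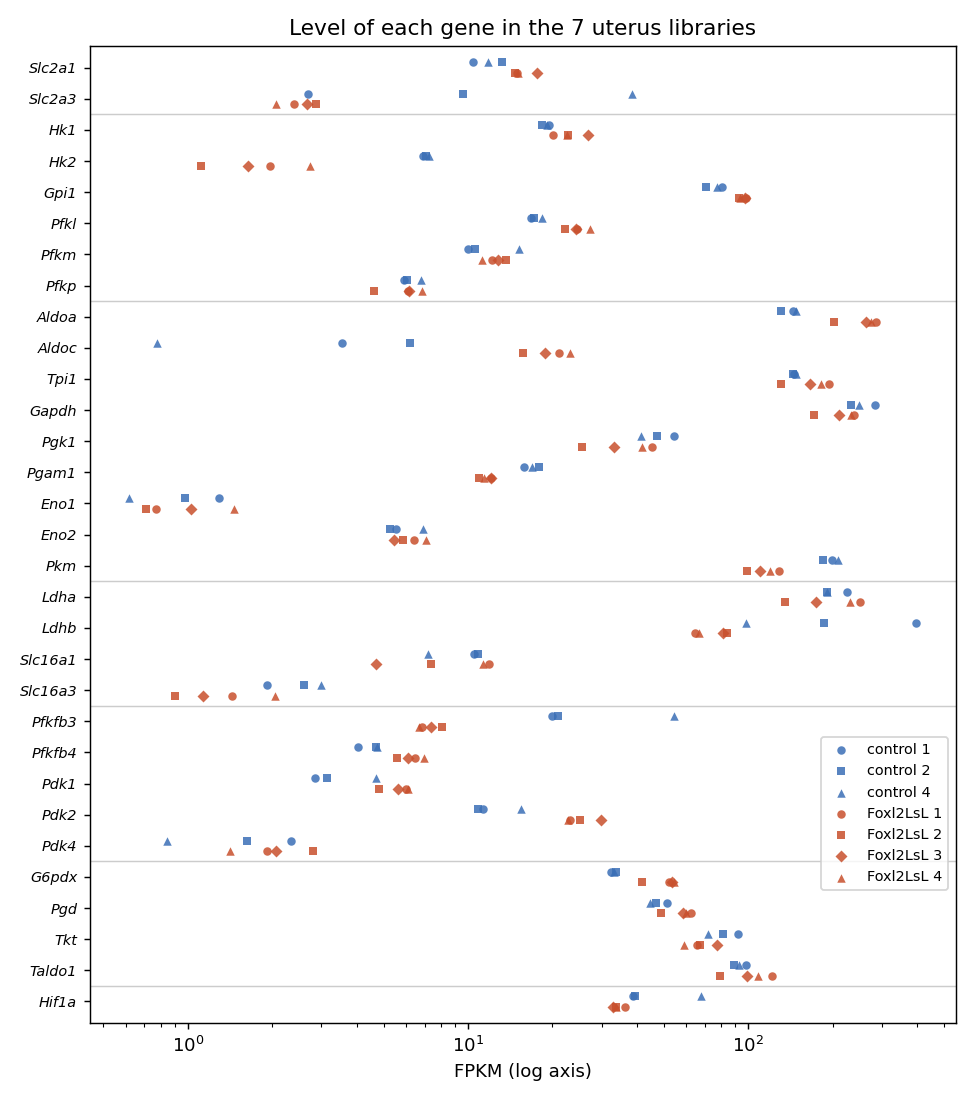
The level of each of the 31 genes in each library, in FPKM on a log axis, with controls in blue, Foxl2LsL-labelled libraries in red, and symbols for the library number. Aldoc, Aldoa, Pdk2 and G6pdx lay apart to the right in the labelled libraries, and Hk2, Pkm and Pfkfb3 to the left, while most of the others lay close or overlapped.

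**Figure D2:**
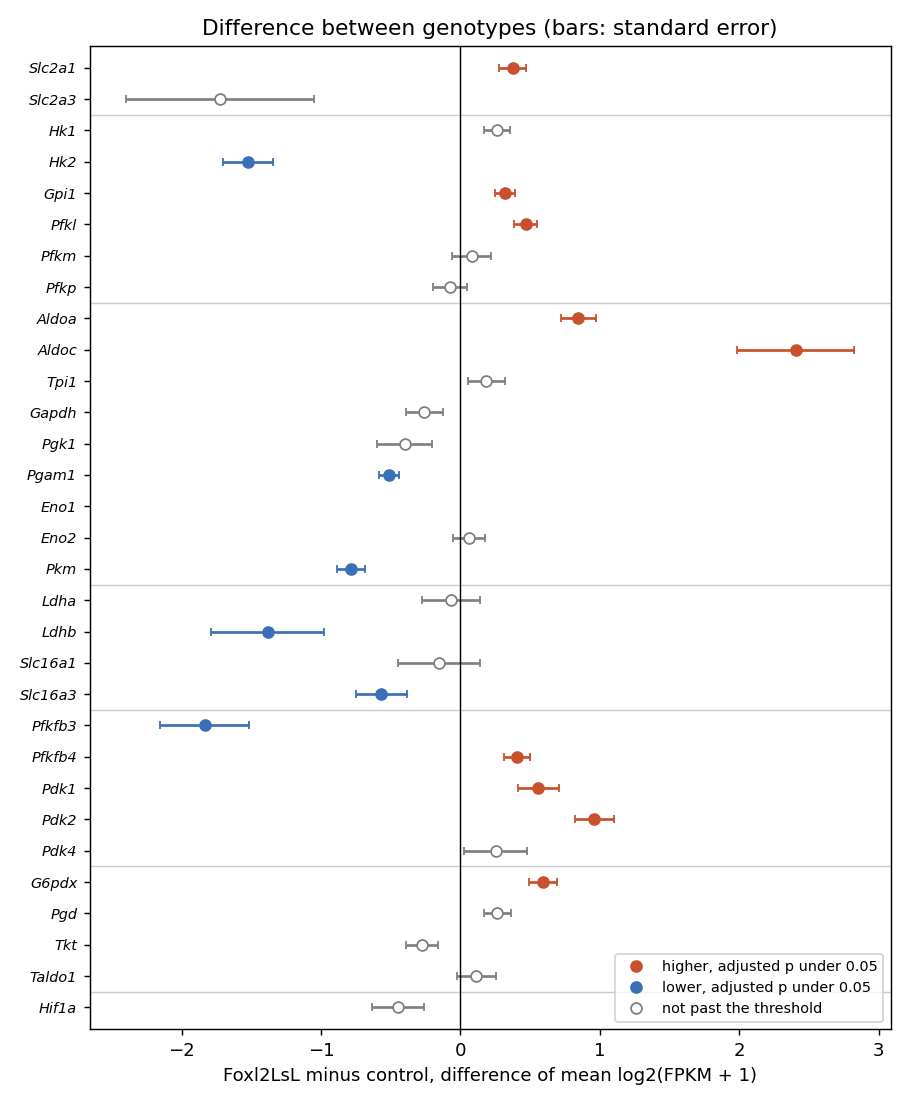
The difference of mean log2(FPKM + 1), Foxl2LsL-labelled minus control, for each gene tested, with bars of 1 standard error. Filled symbols mark the 9 higher and 6 lower genes with a limma adjusted p under 0.05, and Eno1 has no symbol because its mean level was below the filter.

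Promoter sequence is shown for the 4 called genes with the largest log2 difference, Aldoc, Pfkfb3, Hk2 and Ldhb, and for Ldha, whose window held the most hypoxia cores of any member. Each is the 250 bases before a RefSeq start site on GRCm38.p6, written 5′ to 3′ on the gene's strand. Capitals mark the hypoxia response core ACGTG, or CACGT where it lies on the other strand. The E-box motif CACGTG contains this core on both strands. The forkhead motif searched was GTAAACA, which reads as TGTTTAC on the other strand and is capitalised too. The intervals are chr11:78323948-78324197 on the + strand for Aldoc, chr2:11553930-11554179 on the - strand for Pfkfb3, chr6:82774455-82774704 on the - strand for Hk2, chr6:142507958-142508207 on the - strand for Ldhb and chr7:46845554-46845803 on the + strand for Ldha. The Aldoc and Ldha intervals lie inside the annotated genes, and the Pfkfb3 interval lies partly inside. Aldoc has 2 windows, and the second is shown because it held the forkhead motif, while the first, at chr11:78322823-78323072, held none of the motifs. For Pfkfb3 and Ldha, which also have 2 windows, the first is shown.
Aldoc: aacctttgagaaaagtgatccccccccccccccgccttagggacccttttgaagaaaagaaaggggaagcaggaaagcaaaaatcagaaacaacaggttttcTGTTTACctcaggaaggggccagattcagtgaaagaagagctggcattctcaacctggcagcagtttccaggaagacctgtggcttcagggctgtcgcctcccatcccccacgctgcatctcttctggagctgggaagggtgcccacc
Pfkfb3: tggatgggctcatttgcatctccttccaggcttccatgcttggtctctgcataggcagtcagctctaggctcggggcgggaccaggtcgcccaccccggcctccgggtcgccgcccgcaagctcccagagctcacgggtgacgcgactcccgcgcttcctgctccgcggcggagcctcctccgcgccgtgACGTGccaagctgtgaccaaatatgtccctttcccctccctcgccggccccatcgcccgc
Hk2: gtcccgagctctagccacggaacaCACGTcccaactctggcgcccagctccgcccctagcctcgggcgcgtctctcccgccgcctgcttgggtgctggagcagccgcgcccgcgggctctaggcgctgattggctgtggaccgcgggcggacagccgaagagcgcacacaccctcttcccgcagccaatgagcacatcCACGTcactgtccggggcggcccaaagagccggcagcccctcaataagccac
Ldhb: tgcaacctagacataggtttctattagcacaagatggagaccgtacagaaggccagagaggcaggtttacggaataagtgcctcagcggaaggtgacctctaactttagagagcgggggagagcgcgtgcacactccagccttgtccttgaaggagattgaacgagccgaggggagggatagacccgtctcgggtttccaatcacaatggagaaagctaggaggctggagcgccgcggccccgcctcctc
Ldha: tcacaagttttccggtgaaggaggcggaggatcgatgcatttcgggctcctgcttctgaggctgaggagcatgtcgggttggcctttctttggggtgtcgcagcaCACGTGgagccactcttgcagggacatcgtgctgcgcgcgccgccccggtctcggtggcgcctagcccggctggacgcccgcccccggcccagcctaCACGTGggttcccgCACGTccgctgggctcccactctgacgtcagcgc
A RefSeq window was found for 30 of the 31 genes, 45 windows in all. ACGTG or its complement occurred in 16 of the 45 (35.6%), from 13 genes, and in 16.6% of all 32851 windows of this length. CACGTG occurred in 6 (13.3%), against 6.02% of all windows. GTAAACA or its complement occurred in 1 window (2.22%), that of Aldoc shown above, against 3.17% of all windows. Of the 13 genes with a hypoxia core, Aldoa, Pdk2 and Slc2a1 were higher, Hk2, Pfkfb3, Pgam1, Pkm and Slc16a3 were lower, and Hif1a, Ldha, Pfkm, Pgk1 and Slc16a1 were not called. Windows of a gene can overlap, and a pair of overlapping Aldoa windows held the same core. The share of all genes with a core was not counted. A match is a run of letters in a window and says nothing of binding.

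Glucose enters cells through facilitative carriers. Slc2a1 encodes GLUT1, the widely expressed carrier, at chr4:119108711-119137983 (GRCm38, + strand). It measured 10.4, 13.3 and 11.8 FPKM in the controls and 15.0, 14.7, 17.6 and 15.1 FPKM in the Foxl2LsL-labelled libraries. The groups did not overlap, and the means were 11.8 ± 1.41 (SD, n = 3) and 15.6 ± 1.35 (SD, n = 4). Slc2a1 was higher by 0.37 on the log2(FPKM + 1) scale (SE 0.10, limma adjusted p 0.0203). The call was lost without control 1 (adjusted p 0.0561) and without labelled library 3 (0.0505), and over all 19 alternatives the adjusted p ran from 0.012 to 0.0943. Slc2a3, the high-affinity carrier GLUT3, measured 2.69, 9.56 and 38.3 FPKM in the controls and 2.39, 2.88, 2.67 and 2.07 FPKM in the labelled libraries. The controls spanned a wide range and control 1 fell among the labelled libraries, so the log2 difference of -1.73 (SE 0.67) did not pass (limma adjusted p 0.0741). Without control 1 it was -2.55 and passed (adjusted p 0.00676), and without control 4 it was -0.84 and did not (adjusted p 0.105).

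Hexokinase traps glucose as glucose 6-phosphate. Hk2, the isozyme of muscle and of fast-growing cells, lies at chr6:82725025-82774454 on the - strand. Its level was 6.92, 7.05 and 7.25 FPKM in the controls and 1.97, 1.117, 1.65 and 2.74 FPKM in the Foxl2LsL-labelled libraries. Every labelled library was below every control, and the controls were nearly equal. Hk2 fell from 7.08 ± 0.166 (SD, n = 3) to 1.87 ± 0.677 (SD, n = 4), a log2 difference of -1.52 (SE 0.18, limma adjusted p 0.000861). Hk1, the housekeeping hexokinase, measured 19.4, 18.4 and 19.1 FPKM in the controls and 20.1, 22.8, 26.8 and 22.6 FPKM in the labelled libraries. Those groups did not overlap either, with the labelled libraries above, but the log2 difference of 0.26 (SE 0.10) did not pass (limma adjusted p 0.0615). It passed without labelled library 1 and with quantile normalization or median centring. Gpi1, which turns glucose 6-phosphate into fructose 6-phosphate, was higher at 92.6 to 98.0 FPKM in labelled libraries against 70.4 to 80.8 FPKM in controls (log2 difference 0.32, SE 0.07, limma adjusted p 0.00986). That call was lost without labelled libraries 2 and 3 (adjusted p 0.0549).

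Phosphofructokinase commits sugar to glycolysis. Its liver-type subunit Pfkl, at chr10:77986947-78010083 on the - strand, measured 16.7, 17.2 and 18.3 FPKM in the controls and 24.5, 22.1, 24.3 and 27.1 FPKM in the Foxl2LsL-labelled libraries. All 4 labelled libraries were above the controls. Pfkl rose from 17.4 ± 0.828 (SD, n = 3) to 24.5 ± 2.04 (SD, n = 4), a log2 difference of 0.47 (SE 0.08, limma adjusted p 0.00373). The muscle-type subunit Pfkm, at 9.98 to 15.2 FPKM in controls and 11.2 to 13.7 FPKM in labelled libraries, differed by 0.08 (limma adjusted p 0.684). The platelet-type subunit Pfkp, at 5.93 to 6.82 and 4.60 to 6.83 FPKM, differed by -0.08 (limma adjusted p 0.639). Neither was called, and the sign of both depended on single libraries. Of the 6 genes from hexokinase to phosphofructokinase 2 were higher and 1 lower, and their summed level was 130 to 144 FPKM in controls and 157 to 169 FPKM in labelled libraries.

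The largest log2 difference among the 31 genes was in an aldolase, the enzyme that splits fructose 1,6-bisphosphate into triose phosphates. Aldoc, known best from brain, lies at chr11:78322968-78327781 on the + strand. It measured 3.56, 6.22 and 0.775 FPKM in the controls and 21.1, 15.8, 18.9 and 23.2 FPKM in the Foxl2LsL-labelled libraries. The lowest labelled library was above the highest control, and control 4 was far below the other controls. Aldoc rose from 3.52 ± 2.72 (SD, n = 3) to 19.7 ± 3.17 (SD, n = 4), which is 5.60-fold on the means and 2.40 on the log2 scale (SE 0.42, limma adjusted p 0.00381). Without control 4 the difference was 1.84 (adjusted p 0.000786), and without control 2 it was 2.85 (adjusted p 0.00379). Aldoa, the abundant muscle-type aldolase, measured 144, 131 and 149 FPKM in the controls and 286, 202, 263 and 275 FPKM in the labelled libraries. These groups were also apart, with labelled library 2 the lowest of its group. Aldoa rose from 141 ± 9.14 (SD, n = 3) to 257 ± 37.3 (SD, n = 4), a log2 difference of 0.85 (SE 0.13, limma adjusted p 0.00216). The annotation gives the symbol Aldoa to a pair of neighbouring genes on chromosome 7, at chr7:126795234-126800751 and chr7:126800790-126809108, so the counting of its fragments between them is uncertain.

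The triose and phosphoglycerate steps between aldolase and pyruvate kinase moved little or fell. Tpi1, which interconverts the triose phosphates, had means of 146 ± 2.30 (SD, n = 3) and 168 ± 27.6 (SD, n = 4) FPKM and was not called (log2 difference 0.19, limma adjusted p 0.293). It passed only without labelled library 2, where it was lowest (0.30, adjusted p 0.0271), and without labelled libraries 2 and 3 (0.36, adjusted p 0.0309). Gapdh, which makes NADH at the oxidative step, measured 282, 233 and 248 FPKM in the controls and 238, 172, 211 and 233 FPKM in the labelled libraries. The groups overlapped, and the difference of -0.26 (SE 0.13) did not pass (limma adjusted p 0.148), except with quantile normalization. Pgk1, the first ATP-producing enzyme, measured 41.5 to 54.3 FPKM in controls and 25.4 to 45.4 FPKM in labelled libraries (-0.40, SE 0.20, limma adjusted p 0.139) and was not called. Pgam1, phosphoglycerate mutase, measured 15.9, 18.0 and 16.9 FPKM in the controls and 12.0, 10.9, 12.0 and 11.4 FPKM in the labelled libraries. Every labelled library was lower, and Pgam1 fell from 16.9 ± 1.05 (SD, n = 3) to 11.6 ± 0.551 (SD, n = 4), a log2 difference of -0.51 (SE 0.07, limma adjusted p 0.00164). Its reads are partly shared with a copy, described below.

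Enolase was at low level in this table. Eno2, the neuronal-type enolase, had 5.25 to 6.92 FPKM in controls and 5.43 to 7.09 FPKM in labelled libraries (0.06, limma adjusted p 0.697). Eno1, normally the abundant isozyme, was listed at only 1.29, 0.980 and 0.618 FPKM in the controls and 0.773, 0.707, 1.02 and 1.47 FPKM in the labelled libraries, and was not tested. Its near-identical copy Eno1b, looked up after those values were seen, was listed at 7.60, 5.73 and 0.156 FPKM in the controls and at 0.098, 0.086, 0.121 and 0.229 FPKM in the labelled libraries. How enolase reads were divided between these copies cannot be read from the table.

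Pyruvate kinase makes ATP and pyruvate in the last step. Pkm, at chr9:59656368-59679375 on the + strand, measured 199, 184 and 209 FPKM in the controls and 129, 98.8, 110.2 and 119.6 FPKM in the Foxl2LsL-labelled libraries. All 4 labelled libraries were below all 3 controls. Pkm fell from 197 ± 12.4 (SD, n = 3) to 114 ± 12.8 (SD, n = 4), a log2 difference of -0.79 (SE 0.10, limma adjusted p 0.00129). In the steps from aldolase to pyruvate kinase, 2 of 8 tested genes rose, both aldolases, and 2 fell, Pgam1 and Pkm. The summed level of the 9 genes was 770 to 851 FPKM in controls and 662 to 932 FPKM in labelled libraries.

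Lactate dehydrogenase links pyruvate to lactate. Ldhb, the heart-type subunit, lies at chr6:142490249-142507957 on the - strand. It measured 397, 186 and 97.7 FPKM in the controls and 64.7, 83.6, 81.2 and 66.8 FPKM in the Foxl2LsL-labelled libraries. The groups did not overlap, yet control 4 was close to the labelled libraries and control 1 far above. Ldhb fell from 227 ± 154 (SD, n = 3) to 74.1 ± 9.71 (SD, n = 4), a log2 difference of -1.38 (SE 0.41, limma adjusted p 0.0292). Its call was lost under 9 of 19 alternatives, which include leaving out control 2 or any single labelled library, with adjusted p from 0.00236 to 0.107. Without control 1 the difference was -0.87 (adjusted p 0.0343), and without control 4 it was -1.87 (adjusted p 0.00236). The summed markers of dividing cells were also highest in control 1 and lowest in control 4, but in the labelled libraries they were highest in library 1, where Ldhb was lowest, and lowest in library 2, where Ldhb was highest. Their part in the Ldhb values was not tested. Ldha, the muscle-type subunit, measured 226, 191 and 191 FPKM in the controls and 250.04, 135, 175 and 231 FPKM in the labelled libraries. The labelled libraries lay on both sides of the controls, with the highest and the lowest values, and the log2 difference was -0.07 (SE 0.21, limma adjusted p 0.812).

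Monocarboxylate transporters carry lactate across the membrane. Slc16a3, MCT4, measured 1.92, 2.60 and 2.99 FPKM in the controls and 1.44, 0.902, 1.14 and 2.05 FPKM in the Foxl2LsL-labelled libraries. It fell by a log2 difference of -0.57 (SE 0.18, limma adjusted p 0.0416), though labelled library 4 was above control 1. That call was lost under 11 of 18 alternatives, with adjusted p from 0.0207 to 0.22. Leaving out control 2 or 4, or labelled library 1, 2 or 3, each ended it, and without labelled libraries 2 and 3 the difference was -0.35. Slc16a1, MCT1, ranged from 7.17 to 10.9 FPKM in controls and from 4.68 to 11.9 FPKM in labelled libraries and was not called (-0.16, limma adjusted p 0.697).

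Bifunctional kinases set fructose 2,6-bisphosphate, the activator of phosphofructokinase. Pfkfb3, at chr2:11471433-11554077 on the - strand, measured 19.9, 20.9 and 54.5 FPKM in the controls and 6.85, 8.09, 7.37 and 6.69 FPKM in the Foxl2LsL-labelled libraries. The labelled libraries were close to each other and all below the controls, of which control 4 was far the highest. Pfkfb3 fell from 31.8 ± 19.7 (SD, n = 3) to 7.25 ± 0.627 (SD, n = 4), a log2 difference of -1.84 (SE 0.32, limma adjusted p 0.0037), and without control 4 the difference was -1.38 (adjusted p 0.000181). Pfkfb4 moved the other way, from 4.04, 4.69 and 4.74 FPKM in controls to 6.46, 5.57, 6.09 and 6.95 FPKM in labelled libraries (log2 difference 0.40, SE 0.09, limma adjusted p 0.0116). Its groups did not overlap.

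Pyruvate dehydrogenase kinases inhibit the mitochondrial complex that turns pyruvate into acetyl-CoA. Pdk2, at chr11:95026258-95041354 on the - strand, measured 11.3, 10.9 and 15.5 FPKM in the controls and 23.1, 25.2, 29.8 and 22.7 FPKM in the Foxl2LsL-labelled libraries. Every labelled library was above the highest control. Pdk2 rose from 12.5 ± 2.53 (SD, n = 3) to 25.2 ± 3.28 (SD, n = 4), a log2 difference of 0.96 (SE 0.14, limma adjusted p 0.00198). Pdk1 measured 2.85, 3.14 and 4.70 FPKM in the controls and 5.99, 4.83, 5.63 and 6.09 FPKM in the labelled libraries. It was higher by 0.56 (SE 0.15, limma adjusted p 0.0196), with control 4 just below labelled library 2. Without control 1, control 2 or labelled library 4 the call was lost (adjusted p 0.056, 0.0716 and 0.0533). Pdk4, the fasting-induced kinase, had 0.843 to 2.33 FPKM in controls and 1.42 to 2.80 FPKM in labelled libraries and was not called (0.25, limma adjusted p 0.402).

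The pentose phosphate pathway starts with glucose 6-phosphate dehydrogenase. Its gene G6pdx, at chrX:74409483-74429194 on the - strand, measured 32.2, 33.7 and 33.1 FPKM in the controls and 52.1, 41.7, 53.3 and 54.5 FPKM in the Foxl2LsL-labelled libraries. The controls were nearly equal and all labelled libraries were above them. G6pdx rose from 33.0 ± 0.729 (SD, n = 3) to 50.4 ± 5.86 (SD, n = 4), a log2 difference of 0.59 (SE 0.10, limma adjusted p 0.00339). Pgd, the next NADPH-producing enzyme, had 44.5 to 51.4 FPKM in controls and 49.0 to 62.5 FPKM in labelled libraries and was not called (0.27, SE 0.10, limma adjusted p 0.0653). It passed under 5 of 19 alternatives, among them all 3 rescalings and leaving out labelled library 2 (0.34, adjusted p 0.0163). Tkt, transketolase of the non-oxidative branch, measured 91.8, 81.1 and 71.9 FPKM in the controls and 65.4, 67.4, 77.4 and 58.9 FPKM in the labelled libraries. Labelled library 3 was above control 4, and the difference of -0.27 (SE 0.12) did not pass (limma adjusted p 0.0933), except without control 4 (adjusted p 0.0459). Taldo1, transaldolase, ranged from 89.0 to 98.4 FPKM in controls and from 79.1 to 122 FPKM in labelled libraries (0.11, limma adjusted p 0.545). Of the 4 pathway genes, only G6pdx was called.

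Hif1a encodes the oxygen-regulated subunit of HIF1, which is controlled mainly through the stability of its protein. Its transcript measured 38.6, 39.6 and 68.0 FPKM in the controls and 36.3, 33.8, 32.9 and 33.7 FPKM in the Foxl2LsL-labelled libraries. The groups did not overlap, but controls 1 and 2 were close to the labelled libraries. The log2 difference of -0.45 (SE 0.19) did not pass (limma adjusted p 0.0878), and without control 4 it was -0.19 (adjusted p 0.0722). Control 4 was the library highest among controls for 15 of the 30 tested genes (33.3% of all tested genes), including Slc2a3, Pfkfb3, Hif1a and Pdk2. In that library smooth muscle markers summed to 1736 FPKM against 896 and 980 FPKM in the other controls, and 1573 to 2010 FPKM in the labelled libraries. Of the controls, it also had the highest sums of adipocyte, skeletal muscle, stromal, endothelial and gland markers. Its sums of epithelial, leukocyte and dividing-cell markers were the lowest. The part of these markers in its values was not tested.

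Ratios of isozymes within a library do not depend on how libraries are scaled. Of the 10 ratios formed, 5 did not overlap between groups. Each of these 5 had an exact two-sided permutation p of 0.0571, the smallest that 3 against 4 libraries allow, and 0.114 after Benjamini-Hochberg adjustment over the 10, so none could pass. The ratio of Hk2 to Hk1 was 0.357, 0.383 and 0.379 in the controls and 0.0977, 0.0491, 0.0614 and 0.121 in the Foxl2LsL-labelled libraries, a log2 difference of -2.27. Pfkfb4 to Pfkfb3 was 0.203, 0.225 and 0.0869 in the controls and 0.942, 0.689, 0.826 and 1.04 in the labelled libraries (log2 difference 2.45), so the pair went from unequal to nearly equal levels. Aldoc to Aldoa was 0.0247, 0.0475 and 0.00522 in the controls and 0.0737, 0.0778, 0.0719 and 0.0842 in the labelled libraries (2.07). Aldoc therefore remained a small part of aldolase transcripts in every library. Pfkp to Pfkl was 0.351 to 0.372 in controls and 0.208 to 0.254 in labelled libraries (-0.58), and Slc2a3 to Slc2a1 was 0.258 to 3.25 and 0.137 to 0.196 (-2.40). Ldhb to Ldha was 1.76, 0.974 and 0.513 in the controls and 0.259, 0.619, 0.465 and 0.290 in the labelled libraries, and control 4 lay below labelled library 2. Its log2 difference of -1.32 had an exact permutation p of 0.114 (adjusted 0.190). The other 4 ratios overlapped as well, with log2 differences of -0.40 for Pfkm to Pfkl, 0.02 for Eno2 to Eno1, -0.72 for Slc16a3 to Slc16a1 and -0.26 for Pdk4 to Pdk1.

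**Figure D3:**
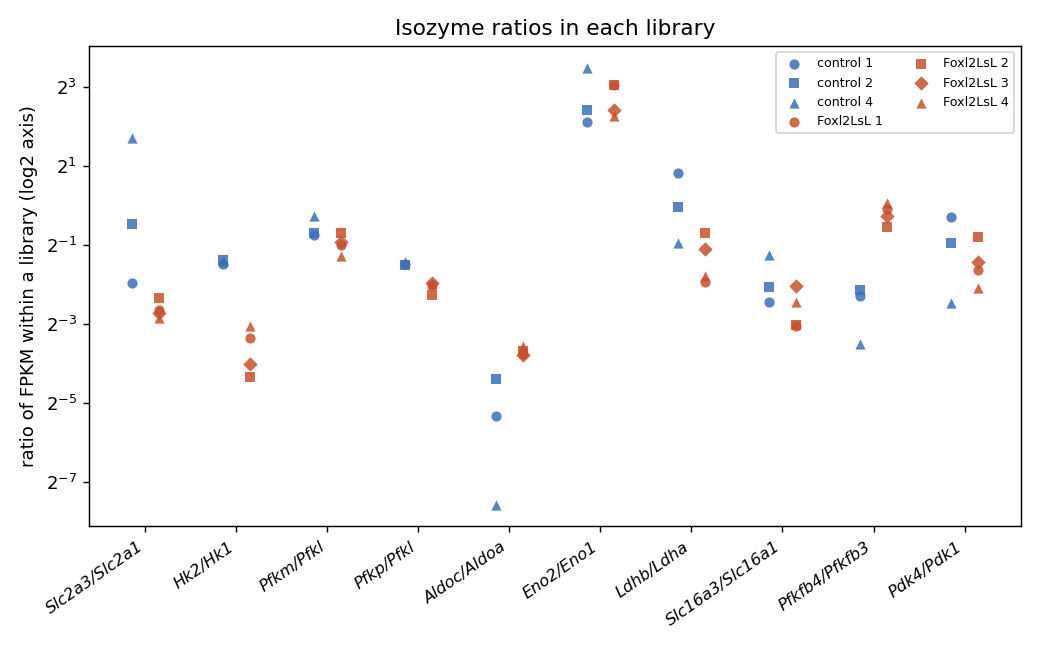
The ratio of FPKM of 10 isozyme pairs in each library, on a log2 axis, with controls in blue and Foxl2LsL-labelled libraries in red. The pairs Hk2/Hk1, Pfkp/Pfkl, Aldoc/Aldoa, Slc2a3/Slc2a1 and Pfkfb4/Pfkfb3 did not overlap between groups, and the other 5 did.

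Libraries of 1 group also differed among themselves. Among the controls, 6 of the 31 genes spanned more than 2-fold (Slc2a3, Aldoc, Eno1, Ldhb, Pfkfb3 and Pdk4), and among the Foxl2LsL-labelled libraries 4 did (Hk2, Eno1, Slc16a1 and Slc16a3). Labelled libraries 1 and 4 were both above labelled libraries 2 and 3 for 16 of the 30 tested genes (27.5% of all tested genes), including Aldoa, Tpi1, Gapdh, Pgk1, Pkm and Ldha. They were both below for 8 (21.9% of all tested genes), including Ldhb, Pdk2 and Pfkfb3. After rescaling each library to the same sum, the counts were 14 (18.8%) and 10 (29.2%). Library 2 was the lowest of the 4 for 19 of the 30 genes (33.2% of all tested genes), and for 16 after rescaling (20.8%). Adipocyte markers were highest in libraries 3 and 2. Other marker sums split the same libraries. Leukocyte markers summed to 65.6, 41.4, 45.8 and 79.6 FPKM in labelled libraries 1 to 4. Smooth and skeletal muscle sums were also higher in libraries 1 and 4, and gland and endothelial sums in libraries 2 and 3. Epithelial, stromal and dividing-cell sums did not split this way. The part of any of these markers in this pattern was not tested. The 31 genes together made 1992, 1644 and 1703 FPKM in the controls and 1823, 1381, 1644 and 1746 FPKM in the labelled libraries.

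**Figure D4:**
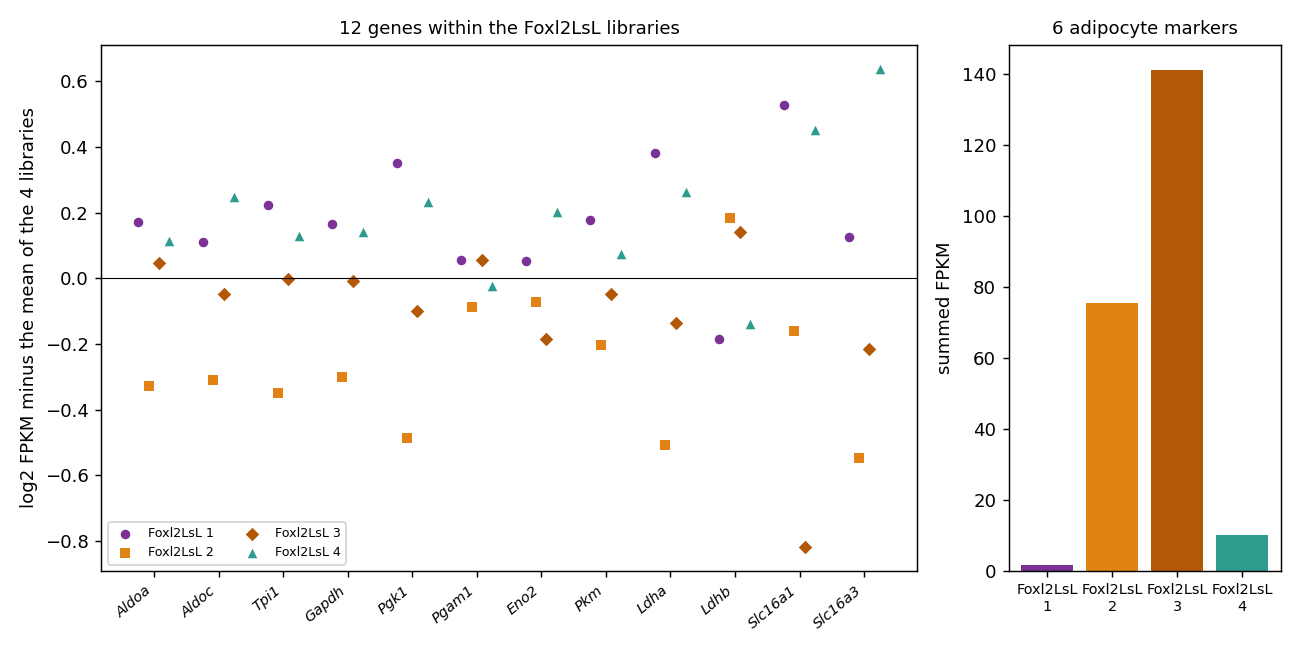
Left, log2 FPKM of 12 genes from aldolase to lactate transport in each of the 4 Foxl2LsL-labelled libraries, minus the mean of the 4; right, the summed FPKM of 6 adipocyte markers in the same libraries. Libraries 2 and 3 lay below libraries 1 and 4 for most of the 12 genes, with Ldhb the other way round, and had the higher marker sums of 75.4 and 141 FPKM.

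Some of these genes share long stretches of sequence with other genes, which could split or add reads. Of all 100-base windows of the longest protein-coding transcript (GENCODE M21, GRCm38), 78.0% for Gapdh were also present in other annotated genes, 86 of them. The share was 67.0% for Pgk1, mostly in Pgk1-rs7, 59.0% for Eno1, mostly in Eno1b, and 39.7% for Pgam1, in Pgam1-ps2. It was 16.0% for Pfkp, with the overlapping gene Pitrm1, 9.82% for Pkm, 8.80% for Ldhb, 7.40% for Gpi1 and 4.09% for Hif1a. The other members were below 2%. Values of Gapdh, Pgk1, Eno1, Pgam1 and Pfkp are therefore uncertain, and the use of strand in the counting is not given in the sources used here. Hk2, Pfkl, Aldoc, Pfkfb3, Pfkfb4, Pdk1 and Pdk2 shared no window. Aldoa shared none with a gene of another symbol, but windows shared between the pair of genes named Aldoa were not counted.

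**Figure D5:**
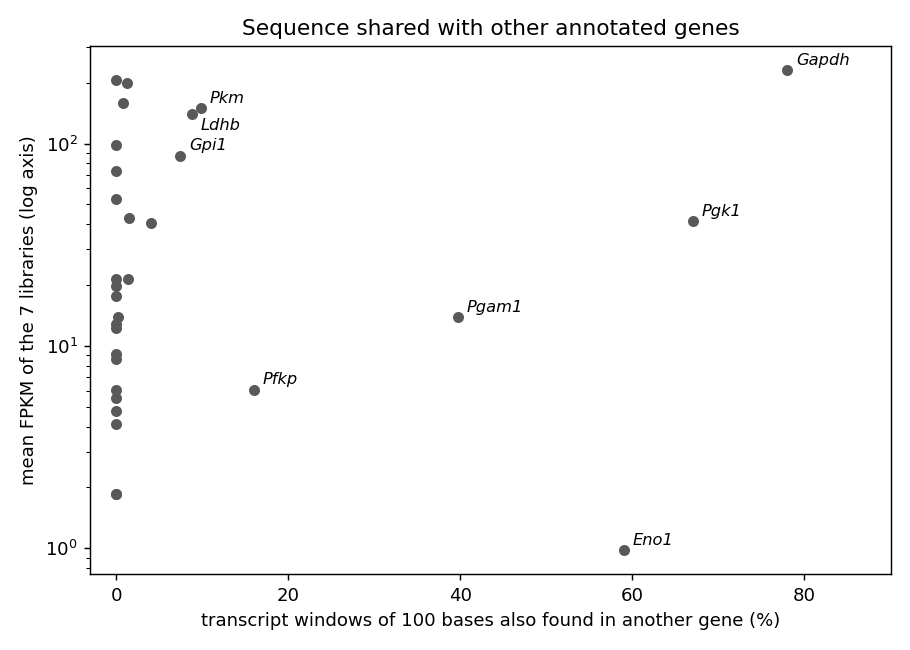
For each of the 31 genes, the percentage of 100-base transcript windows also found in another annotated gene (horizontal axis) and the mean FPKM of the 7 libraries (vertical axis, log scale). Gapdh, Pgk1, Eno1 and Pgam1 stand apart at 78.0, 67.0, 59.0 and 39.7%.

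Around the pathway, 98 further genes in 8 lists of related carriers, enzymes and regulators were examined. Of 85 tested, 33 were called (38.8%, against 40.6% of all genes tested), 21 higher and 12 lower in the Foxl2LsL-labelled libraries. Among 14 other carriers and their regulators tested, 3 were higher and none lower (1 lower at an unadjusted limma p under 0.05 and 1 by limma-voom), with a median log2 difference of 0.41. Txnip, which restrains glucose uptake, rose from 110 ± 20.1 (SD, n = 3) to 398 ± 84.5 FPKM (SD, n = 4; 1.83, limma adjusted p 0.00054), and its lowest labelled library was at 315 FPKM against a highest control of 130. Emb, the chaperone of monocarboxylate transporters, rose from 39.5 to 82.3 FPKM (1.01, adjusted p 0.0113), and Slc2a4, the insulin-sensitive carrier GLUT4, rose from 3.71 to 7.23 FPKM (0.84, adjusted p 0.0129). Slc2a4 is also expressed by adipocytes. It measured 2.61, 3.17 and 5.34 FPKM in the controls and 6.46, 6.44, 7.13 and 8.90 FPKM in the labelled libraries. Its call was lost without control 2 (adjusted p 0.0502) and without labelled libraries 2 and 3 (adjusted p 0.0673). Libraries 2 and 3 had the most adipocyte markers, and Slc2a4 was lowest in library 2 and highest in library 4. Leaving both out also cut the calls among all genes from 5409 to 3119. The part of adipocytes in the Slc2a4 values was not tested. Without those libraries the difference of Emb was 0.64 and still passed.

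Other isozymes and modifiers of glycolysis moved in both directions: of 12 tested, 5 were lower and 3 higher (median log2 difference -0.24). Adpgk, the ADP-dependent glucokinase, fell from 18.8 to 10.5 FPKM (-0.78, limma adjusted p 0.000411), and Bpgm, which makes 2,3-bisphosphoglycerate, fell from 10.002 to 4.99 FPKM (-0.85, adjusted p 0.0066). Ldhd, the D-lactate dehydrogenase, rose from 13.3 to 22.5 FPKM (0.72, adjusted p 0.0222). The call of Ldhd was lost under 7 of 19 alternatives, among them leaving out control 1, control 2, labelled library 2 or labelled library 3, and its adjusted p reached 0.137. Of 12 genes of pyruvate entry, 2 were lower and none higher (0 higher at an unadjusted limma p under 0.05, 0 by limma-voom), namely Pdk3 (15.3 to 8.26 FPKM, -0.78, adjusted p 0.00643) and Pdhx, a pyruvate dehydrogenase subunit (8.37 to 6.23 FPKM, -0.37, adjusted p 0.00917). Pdk3 thus moved against its relatives Pdk1 and Pdk2. Of 8 other pentose phosphate genes tested, the endoplasmic reticulum enzyme H6pd (14.1 to 18.3 FPKM) and Shpk (1.93 to 2.87 FPKM) rose, and Pgls, which acts between G6pdx and Pgd, fell (41.6 to 32.3 FPKM, -0.36, adjusted p 0.0348). These 3 calls were lost under 8 of 19 alternatives for H6pd, 8 of 18 for Shpk and 9 of 19 for Pgls. The libraries whose omission ended them were controls 1 and 2 and labelled libraries 1, 3 and 4 for H6pd, controls 1 and 2 and labelled libraries 2, 3 and 4 for Shpk, and every library but labelled library 1 for Pgls. Without both labelled libraries 2 and 3, the calls of Bpgm, Pdk3 and Pdhx were lost as well (adjusted p 0.0632, 0.0519 and 0.0732).

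Of 13 glycogen genes tested, 3 were higher and none lower (1 lower at an unadjusted limma p under 0.05, 0 by limma-voom). They were Pygb, a glycogen phosphorylase (37.4 to 56.9 FPKM, 0.59, limma adjusted p 0.000933), Phkb, a subunit of phosphorylase kinase (11.6 to 17.3 FPKM, 0.55, adjusted p 0.00254), and Gsk3b, a kinase that acts on glycogen synthase (12.6 to 14.4 FPKM, 0.19, adjusted p 0.0416). Of 6 genes of gluconeogenesis and fructose metabolism tested, 3 were higher and 1 lower. Fbp2, the muscle fructose bisphosphatase, rose from 1.34 to 4.27 FPKM (1.20, adjusted p 0.00206), Pck1, which makes phosphoenolpyruvate, from 1.13 to 4.76 FPKM (1.44, adjusted p 0.0174), and Sord, sorbitol dehydrogenase, from 8.75 to 11.4 FPKM (0.34, adjusted p 0.0422). Pck1 is also an adipocyte gene. It measured 4.09, 2.76, 8.41 and 3.77 FPKM in labelled libraries 1 to 4, highest in library 3 and lowest in library 2, the libraries with the most adipocyte markers (141 and 75.4 FPKM). Its call was lost without control 1, without control 2 and without both of those libraries (adjusted p up to 0.0653), and its log2 difference was 2.31 by limma-voom. The call of Sord was lost under 11 of 19 alternatives, among them leaving out any single library but labelled library 4, and that of Gsk3b under 12, among them leaving out any single library. Their adjusted p reached 0.193 and 0.173.

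Genes of the hypoxia response did not move in 1 direction. Of 8 oxygen-sensing genes tested, only Egln1, a prolyl hydroxylase that marks HIF1A for degradation, was called, rising from 32.2 to 50.6 FPKM (0.64, limma adjusted p 0.00996). Of 12 other hypoxia-induced genes, 6 were higher and 3 lower (median log2 difference 0.27). Of all genes tested, 16.7% were higher and 23.9% lower. The higher genes were Ankrd37, Bnip3, Bnip3l, Ndrg1, Car9 and Ddit4, and the lower ones Vegfa, P4ha2 and Higd1a. Ankrd37 measured 2.60, 1.56 and 1.26 FPKM in the controls and 21.0, 5.79, 8.88 and 24.9 FPKM in the Foxl2LsL-labelled libraries (2.34, SE 0.46, adjusted p 0.00622). It was higher in labelled libraries 1 and 4 than in 2 and 3, as were 16 of the 30 tested members and 27.5% of all tested genes. Of the other called genes of this list, Ddit4, P4ha2 and Higd1a split the same way and Ndrg1 the opposite way. Bnip3, Bnip3l, Car9 and Vegfa did neither. Vegfa, the endothelial growth factor, fell from 64.2 ± 6.91 (SD, n = 3) to 29.0 ± 3.40 FPKM (SD, n = 4; -1.12, adjusted p 0.000596), and P4ha2, a collagen prolyl hydroxylase subunit, fell from 30.5 to 12.3 FPKM (-1.27, adjusted p 0.00197). Of the 6 endothelial markers, 4 were lower in the same libraries and 1, Cldn5, was higher (16.5 to 29.8 FPKM, adjusted p 0.00502), and their part in these values was not tested.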

How the data were processed

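RNA-seq of whole mouse uterus was analysed from 1 deposited table of FPKM with a gene length per row (in bases), in 3 control and 4 Foxl2LsL-labelled libraries. The FPKM values and the length column, which is not a measurement, were made by the authors. STAR 2.5.2b, featureCounts 1.5.0-p1, Subread, DESeq2 1.12.4 and the build mm10 are named in the submitters' processing notes, without roles, and how strand was used is not given in the sources used here. The depth was recovered from FPKM: low values were whole multiples of 1 fragment (100% within 0.1, against 20% by chance), which gave 47800000 to 67300000 fragments per library, with 74.4 to 77.5% on listed genes. No 2 libraries of a group were alike (chi-square per gene 21.4 to 203).

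Differences were fitted with limma 3.58.1 (R 4.3.3; empirical Bayes with an intensity trend) on log2(FPKM + 1), which understates the change of low genes. Foxl2 and all genes whose mean over the libraries reached 1 FPKM were tested (13334 of 24964), with Benjamini-Hochberg adjustment over all of them and a threshold of 0.05. On simulated data of 13334 genes, 184 of 200 genes changed by 1.5 on the log2 scale were recovered in the right direction and 7 unchanged genes were called. In the real data 40.6% of genes were called and the median absolute difference was 0.27. The simulated counts therefore do not give the error rates of the real comparison. Isozyme ratios were tested by exact two-sided permutation over 35 splits.

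Promoter windows come from RefSeq (GRCm38.p6), and gene coordinates and transcripts from GENCODE M21 (GRCm38, the build named mm10). Transcript windows and the promoters shown were chosen after the data were seen. The members and lists were chosen with earlier results of these data known. Full statistics were given for the 12 called members with the largest log2 difference and for 10 preset genes, and in each further list for up to 3 called genes whose groups did not overlap. The limma comparison was recomputed under 18 other settings of scaling, filter, variance model and libraries used. The setting with libraries numbered 1, 2 and 4 without a block is the same fit as leaving out labelled library 3. Both names are kept in every count of alternatives, so that fit is counted under each. Another 1 was added after the data were seen (without both adipocyte-rich Foxl2LsL-labelled libraries). The isozyme ratios were recomputed, without their test, only with a pseudocount added and with each library left out. The labels do not say whether the numbers pair the libraries, so the main fit had no block.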

Additional observations from a re-analysis of the deposited data

Results flagged for a closer look

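In 63 groups of 4 Foxl2LsL-labelled libraries examined, 31 members, Foxl2, 21 further genes and 10 ratios, 4 held a library far from the others by Dixon's ratio, the gap to the nearest library divided by the range, at its 95% critical value, where chance gives about 1 in 20. Slc2a1 was 17.6 FPKM in labelled library 3 and 14.7 to 15.1 FPKM in the others (ratio 0.853), and its call was lost without that library. Fbp2 was 3.44 FPKM in labelled library 2 and 4.48 to 4.62 FPKM in the others (ratio 0.884). Vegfa was 23.9 FPKM in labelled library 1 and 30.6 to 30.965 FPKM in the others (ratio 0.949). The ratio of Pfkp to Pfkl was 0.208 in labelled library 2 and 0.248 to 0.254 in the others (ratio 0.876).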

How the results depend on the processing

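Of the 15 called members, 9 kept their call under all alternatives that gave them a value: Aldoa, Aldoc, G6pdx, Hk2, Pdk2, Pfkfb3, Pfkl, Pgam1 and Pkm. None of the 15 reversed. Of the 21 further genes named, 10 kept their call under all alternatives and 11 lost it under at least 1. Between 10 and 17 members were called over the 19 alternatives, and 12 to 15 when a library was left out. All genes called numbered 5409, and 3119 without both adipocyte-rich Foxl2LsL-labelled libraries, where the further lists had 20 called genes against 33. With the replicate block on numbers 1, 2 and 4, 3243 genes and 10 members were called. Slc2a1, Gpi1, Ldhb, Slc16a3 and Pfkfb4 lost their call. The correlations of same-numbered libraries were 0.23, -0.03 and -0.11, too few values to show whether the numbers pair the libraries. Slc16a1 turned to 0.082 with that block and with the libraries numbered 1, 2 and 4 without it. Without both adipocyte-rich libraries, Pfkm was -0.0044, Pfkp 0.039, Ldha 0.25 and Slc16a1 0.28. When a library was left out, values that crossed 0 ranged from -0.026 to 0.26 for Pfkm, -0.14 to 0.021 for Pfkp, -0.0069 to 0.16 for Eno2, -0.20 to 0.10 for Ldha, -0.33 to 0.082 for Slc16a1, -0.10 to 0.28 for Foxl2, -0.26 to 0.43 for Eno2/Eno1 and -0.877 to 0.22 for Pdk4/Pdk1. For all of these the cause was not tested.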
